A study of Mus musculus with 6 samples.

Results

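Vesicles of cultured hepatocytes carried a clear endothelial miRNA, miR-126a-3p, and smaller amounts of miRNAs that mark hepatic stellate cells and fibroblasts. The 9 rows described here were taken by name from a table of 1976 mature mouse miRNAs. They are the endothelial rows mmu-miR-126a-3p, mmu-miR-126a-5p and mmu-miR-126b-5p, and the stellate cell or fibroblast rows mmu-miR-143-3p, mmu-miR-145a-5p, mmu-miR-199a-3p, mmu-miR-199a-5p, mmu-miR-199b-3p and mmu-miR-214-3p, written without the species prefix from here on. The rule used names only and no measured value. Small RNA had been sequenced from vesicles, labelled exosomes, shed by primary hepatocytes of Wild type (C57BL/6J) genotype. In the PA group (3 libraries) the cells received palmitic acid, a saturated fatty acid, at 600 µM, and in the Control group (3 libraries) at 0 µM. The labels give no age or number of mice. Nor do they tell whether replicates were separate cultures, and the p-values below therefore reflect spread among libraries that may be technical. By its title the study concerns vesicle-borne miR-30b-5p and endothelial dysfunction in fatty liver, and the comparison addresses what palmitic acid does to the miRNAs that hepatocytes release.

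A miRNA is cut from a hairpin precursor, one arm of which usually becomes the guide that is loaded into Argonaute, while the other arm is mostly degraded. The guide pairs with target transcripts through its seed, bases 2 to 8. miR-126 is encoded inside Egfl7, a gene of endothelial cells, and is known for supporting VEGF signalling and vascular integrity. miR-143 and miR-145 come from neighbouring hairpins and are abundant in smooth muscle, fibroblasts and other mesenchymal cells. miR-199a and miR-214 share the non-coding host transcript Dnm3os and are known from activated stellate cells and fibrosis. Hepatocytes themselves are dominated by miR-122, and the miRNAs described here are used in liver as markers of non-parenchymal cells.

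Mature sequences were found in the RefSeq table (GRCm38.p6) for 6 of the 9 members. They are shown because sequence identity and strand decide which of the rows can be read as separate measurements. Each is printed 5′ to 3′ with the seed in capitals.
miR-126a-3p: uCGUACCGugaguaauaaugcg
miR-126b-5p: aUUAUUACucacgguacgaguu
miR-199a-3p: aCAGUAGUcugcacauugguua
miR-199b-3p: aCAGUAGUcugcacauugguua
miR-199a-5p: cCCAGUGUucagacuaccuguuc
miR-214-3p: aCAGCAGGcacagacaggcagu
The miR-199a-3p and miR-199b-3p rows hold the same 22 bases and the same seed, so a read of this sequence cannot be assigned to either name. No seed was shared among the other sequences shown. The sequence of miR-199a-3p is encoded by Mir199a-2 (chr1:162217883-162217904, plus strand) and by Mir199a-1 (chr9:21496498-21496519, minus strand). Mir199b holds the same sequence at chr2:32318524-32318545 on the plus strand. These 3 hairpins lie antisense within introns of Dnm3, Dnm2 and Dnm1, genes of the dynamin family that act in membrane fission, and Mir199a-2 is also exonic in Dnm3os. Mir214 (chr1:162223368-162223477) lies in an exon of Dnm3os as well, 5444 bases from Mir199a-2.

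miR-126a-3p (chr2:26591402-26591423, plus strand) and miR-126b-5p (chr2:26591399-26591420, minus strand) share 19 positions on opposite strands of 1 locus. The hairpin Mir126a lies in an intron of the coding transcripts of Egfl7 and of the overlapping gene model Gm20532, and in an exon of another Egfl7 transcript. Whether the counting used strand is not given in the sources used here, so reads of the 2 strands cannot be told apart with certainty. Mir145a (chr18:61647825-61647894) and Mir143 (chr18:61649196-61649258) stand on the minus strand with 1301 bases between them, outside any longer gene of the GENCODE M21 annotation.

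Reads recovered from the deposited log2 values totalled 799164, 761828 and 613481 in PA replicates 1, 2 and 3, against 95228, 657571 and 252341 in Control replicates 1, 2 and 3. After removal of miR-122-5p and of miR-122b-3p, which overlaps it, 676924, 672485 and 534434 reads were left in the PA libraries, against 29347, 80767 and 52608 in the Control libraries. The Control libraries therefore offer far fewer reads in which other miRNAs can be seen. Reads were found for 484 to 640 rows per PA library, against 238 to 243 per Control library. Levels are given as RPM, reads scaled to a common library total, either of all reads or of reads other than these miR-122 rows. Intervals and floors cover counting error only, since PCR copies of 1 molecule count as several reads.

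Of the 9 members, 8, 9 and 8 had at least 1 read in PA replicates 1, 2 and 3, against 6, 6 and 7 in Control replicates 1, 2 and 3. Scaled to the 95228 reads of the shallowest library, 7, 7 and 8 members would have been expected to hold at least 1 read in the PA libraries, against 6, 5 and 7 in the Control libraries. This scaling matched all reads and not reads other than miR-122, of which the Control libraries had far fewer. It therefore does not show that more members were detectable with PA. In PA vesicles miR-126a-3p was the highest member at 4255 ± 612 RPM of all reads, followed by miR-143-3p at 421 ± 80.3 RPM, miR-126b-5p at 179 ± 15.3 RPM, miR-199a-3p at 94.6 ± 17.1 RPM and miR-199b-3p at 47.7 ± 7.64 RPM (SD, n = 3). miR-199a-5p (25.9 ± 13.8 RPM) and miR-126a-5p (25.2 ± 6.73 RPM) followed and did not differ beyond their spread, and miR-145a-5p (8.45 ± 3.97 RPM) and miR-214-3p were lowest. In Control vesicles miR-126a-3p was again highest, at 2406 ± 1360 RPM (SD, n = 3). miR-143-3p (659 ± 771 RPM), miR-199a-3p (279 ± 298 RPM), miR-199b-3p (145 ± 162 RPM) and miR-126b-5p (123 ± 75.2 RPM) spread widely among libraries. Within every Control library miR-143-3p lay above miR-199a-3p, miR-199b-3p and miR-126b-5p, and miR-199a-3p lay above miR-199b-3p. The place of miR-126b-5p relative to the miR-199-3p rows differed between libraries. By mean RPM, miR-126a-3p ranked 22nd of the 880 rows with a read in PA libraries and 16th of the 386 rows with a read in Control libraries.

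**Figure D1:**
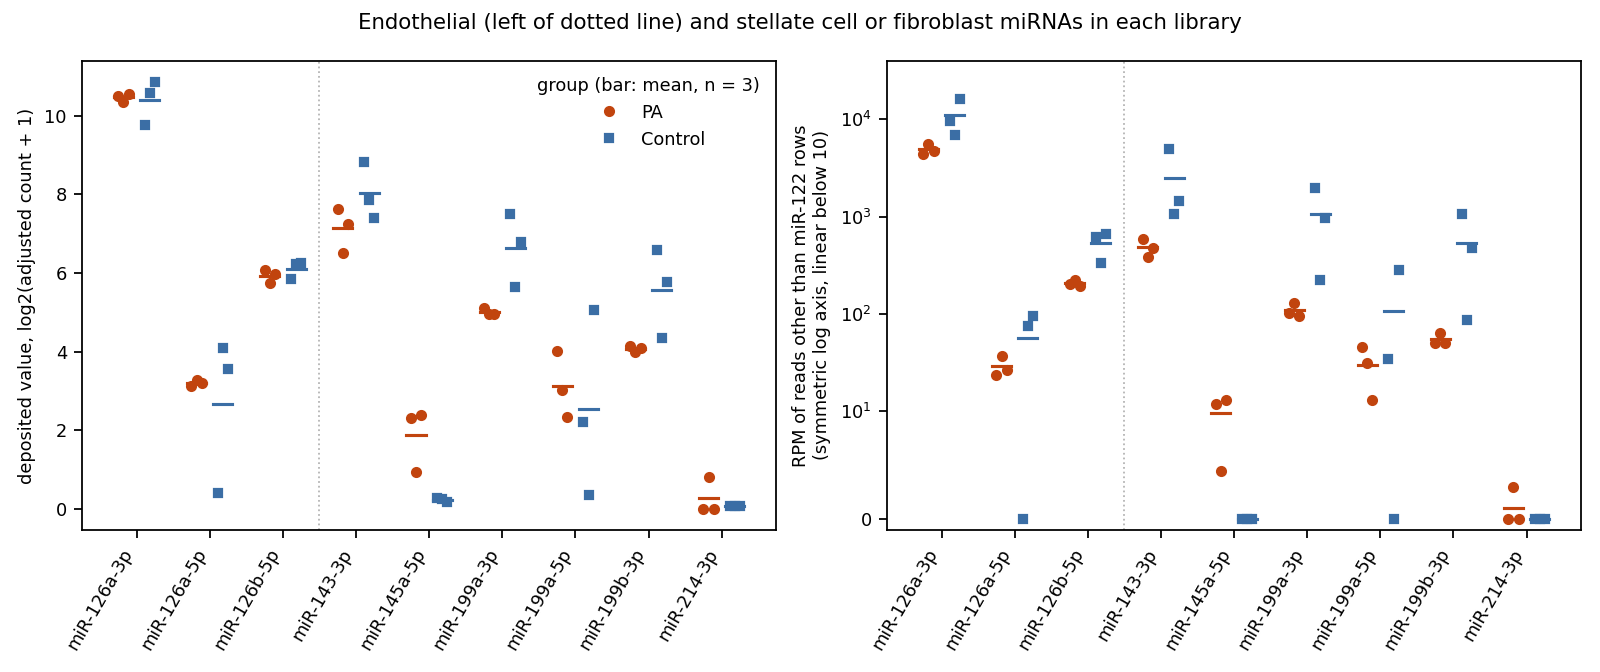
Levels of the 9 members in each library. The left panel shows the deposited value, log2(adjusted count + 1), and the right panel RPM of reads other than the miR-122 rows, on a symmetric log axis that is linear below 10. Circles are the 3 PA libraries, squares the 3 Control libraries, and bars the group means. The groups overlap for miR-126a-3p on the left (10.36 to 10.55 with PA, 9.78 to 10.86 in Control), while every PA library lies below every Control library on the right.

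miR-126a-3p, the endothelial guide strand, stood at deposited log2 values of 10.51, 10.36 and 10.55 in PA replicates 1, 2 and 3, against 9.78, 10.58 and 10.86 in Control replicates 1, 2 and 3. The groups overlapped, and the PA libraries lay inside the range of the Control libraries. These values rested on 2975, 3751 and 2526 reads with PA, against 282, 563 and 858 reads in Control. Its log2 difference, PA minus Control, was 0.07 (SE 0.39, 95% interval -0.82 to 0.96, limma adjusted p = 0.879). This interval leaves differences of either sign. As a level among all reads it stood at 3723, 4924 and 4117 RPM with PA, against 2961, 856 and 3400 RPM in Control, and every PA library was higher. Among reads other than miR-122 it stood at 4395, 5578 and 4726 RPM with PA, against 9609, 6971 and 16310 RPM in Control, and every PA library was lower. The direction for this miRNA thus turned with the denominator. Control replicate 2, the deepest Control library, was the lowest Control library on both of these scales.

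miR-126b-5p, from the opposite strand, held 137, 150 and 104 reads in PA replicates 1, 2 and 3, against 18, 27 and 35 reads in Control. Its deposited log2 values were 6.08, 5.74 and 5.97 with PA, against 5.84, 6.22 and 6.26 in Control, and the groups overlapped. The log2 difference was -0.18 (SE 0.64, 95% interval -1.64 to 1.29, limma adjusted p = 0.827). Among reads other than miR-122 it stood at 207 ± 14.7 RPM with PA, against 538 ± 178 RPM in Control (SD, n = 3), and the groups did not overlap. Among all reads they overlapped, at 171.4, 196.9 and 169.5 RPM with PA, against 189, 41.1 and 138.7 RPM in Control. miR-126a-3p took 95.6%, 96.2% and 96.0% of the reads of both rows in PA replicates 1, 2 and 3, against 94.0%, 95.4% and 96.1% in Control. The per-library log2 ratio of miR-126a-3p to miR-126b-5p was 4.55 ± 0.11 with PA and 4.31 ± 0.33 in Control (SD, n = 3). The difference of 0.24 had an exact permutation p = 0.3 (two-sided, adjusted p = 0.4 over 3 pairs), where 0.1 is the smallest p that 3 libraries against 3 allow. Whether the counting used strand is not known. If it did not, this test cannot show a change between the rows.

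miR-126a-5p, the other arm of miR-126a, was low and, in the Control libraries, near the limit of detection. It had 16, 25 and 14 reads with PA, against 0, 6 and 5 reads in Control, and reached an adjusted count of 10 in 2 of the 6 libraries, so it did not pass the filter on low values. The 3p arm made up 99.5%, 99.3% and 99.4% of the miR-126a reads in PA replicates 1, 2 and 3. In Control replicates 2 and 3 it made up 98.9% (95% Clopper-Pearson interval 97.7 to 99.6) and 99.4% (98.7 to 99.8), and all 282 reads in Control replicate 1 were 3p. Taken over the libraries of a group the 3p share was 99.4% with PA (99.2 to 99.5), against 99.4% in Control (98.9 to 99.7), and no difference in arm balance was detectable at this depth. The miR-126b-3p row, which covers bases 7 to 29 of the Mir126a hairpin on the opposite strand, held 16, 20 and 10 reads with PA, against 0, 2 and 6 reads in Control. It was thus about as frequent as miR-126a-5p, which made up 54.5% of the reads of both rows with PA (95% interval 44.2 to 64.4) and 57.9% in Control (33.5 to 79.8). This share, too, depends on whether the counting used strand.

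miR-143-3p, the most frequent stellate cell or fibroblast member, held 402, 261 and 256 reads in PA replicates 1, 2 and 3, against 147, 85 and 77 reads in Control. Its deposited log2 values were 7.62, 6.52 and 7.26 with PA, against 8.83, 7.86 and 7.39 in Control. PA replicate 1 lay above Control replicate 3, so the groups overlapped. The log2 difference was -0.89 (SE 0.56, 95% interval -2.18 to 0.40, limma adjusted p = 0.192). Among reads other than miR-122 its level was 594, 388 and 479 RPM with PA, against 5009, 1052 and 1464 RPM in Control, and every PA library was lower. Among all reads it was 503, 343 and 417 RPM with PA, against 1544, 129 and 305 RPM in Control, and the groups overlapped. Control replicates 2 and 3 lay below every PA library there. Control replicate 1 was the highest library on each of these scales.

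miR-145a-5p, the guide arm that accompanies miR-143 in smooth muscle and fibroblasts, had 8, 3 and 7 reads with PA and no read in any Control library. A count of 0 allows up to 3 reads, or 31.5, 4.56 and 11.9 RPM in Control replicates 1, 2 and 3, while the PA libraries stood at 10.01, 3.94 and 11.4 RPM. The PA levels do not exceed the limits of all Control libraries, so a difference was not detectable at this depth. miR-143-3p exceeded its neighbour throughout, at 919 against 18 reads over the PA libraries and 309 against 0 reads over the Control libraries. The opposite arm, miR-145a-3p, had 0, 4 and 4 reads with PA, against 0, 13 and 2 reads in Control. The 5p arm therefore held 69.2% of the miR-145a reads with PA (18 of 26, 95% interval 48.2 to 85.7) and 0 of 15 reads in Control (upper bound 21.8%), although 13 of those 15 came from Control replicate 2 alone.

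miR-199a-3p, a guide strand of fibroblasts and stellate cells, held 69, 87 and 51 reads with PA, against 58, 18 and 51 reads in Control. Its deposited log2 values were 5.11, 4.96 and 4.96 with PA, against 7.49, 5.65 and 6.79 in Control, and every PA library was lower than every Control library. The log2 difference of -1.63 did not pass the threshold (SE 0.76, 95% interval -3.39 to 0.13, limma adjusted p = 0.0982). Among all reads the groups overlapped, at 86.3, 114 and 83.1 RPM with PA, against 609, 27.4 and 202 RPM in Control. miR-199b-3p, the row with the same sequence, held 34, 43 and 27 reads with PA, against 31, 7 and 25 reads in Control, and differed by -1.50 (SE 0.89, 95% interval -3.56 to 0.56, limma adjusted p = 0.176). Control replicate 2 was the Control library nearest to the PA libraries for both rows. Without it the difference reached -2.13 (limma adjusted p = 0.0227) for miR-199a-3p and -2.11 (0.0325) for miR-199b-3p. Leaving out the nearest library makes a difference larger by construction, and both rows hold the same sequence. When any other library was left out instead, the differences were -1.68 to -1.21 (limma adjusted p 0.127 to 0.234) for miR-199a-3p. For miR-199b-3p they were then -1.53 to -0.99 (limma adjusted p 0.186 to 0.358).

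The 2 rows split the reads of their shared sequence in similar proportions in the 6 libraries. miR-199a-3p took 67.0%, 66.9% and 65.4% of them in PA replicates 1, 2 and 3, against 65.2%, 72.0% and 67.1% in Control. Over all 6 libraries that was 334 of 501 reads, or 66.7% (95% Clopper-Pearson interval 62.4 to 70.8), and 2 of the 3 gene copies of the sequence, also 66.7%, carry the miR-199a name. The log2 ratio of the rows was 0.97 ± 0.06 with PA and 1.09 ± 0.21 in Control (SD, n = 3), a difference of -0.12 (exact permutation p = 0.4, adjusted p = 0.4 over 3 pairs). Since a read of this sequence cannot be assigned to either name, this test cannot show a change between the names. The pair still counts among the 3 of the adjustment. Summed into 1 row, a step chosen after seeing the data, the sequence held 103, 130 and 78 reads with PA, against 89, 25 and 76 reads in Control. The summed row differed by -1.61 (SE 0.70, 95% interval -3.22 to 0.01, limma adjusted p = 0.0802).

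miR-199a-5p, the other arm of Mir199a-1 and Mir199a-2, varied widely, with 31, 21 and 7 reads with PA, against 1, 0 and 15 reads in Control. It reached an adjusted count of 10 in 2 of the 6 libraries and was not among the tested rows. The 3p arm held 69.0% (95% interval 59.0 to 77.9), 80.6% (71.8 to 87.5) and 87.9% (76.7 to 95.01) of the miR-199a reads in PA replicates 1, 2 and 3. In Control it held 98.3% (90.9 to 99.96), 100% of 18 reads (lower bound 81.5%) and 77.3% (65.3 to 86.7) in replicates 1, 2 and 3. Control replicate 3 thus lay among the PA libraries. The log2 ratio of 3p to 5p was 1.96 ± 0.81 with PA and 4.4 ± 2.3 in Control (SD, n = 3), a difference of -2.44 (exact permutation p = 0.3, adjusted p = 0.4 over 3 pairs). It became -3.76 when Control replicate 3 was left out and -1.64 when Control replicate 2 was. Control replicates 1 and 2 held 1 and 0 reads of the 5p arm, so their ratios depend on the 0.5 added to each adjusted count. With 5 added the difference was -1.66, and with recovered reads it was -2.09. miR-214-3p, which shares the Dnm3os transcript with Mir199a-2, had 2 reads, both in PA replicate 2, and none in the other libraries. For the 3 Control libraries a count of 0 allows up to 31.5, 4.56 and 11.9 RPM.

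**Figure D2:**
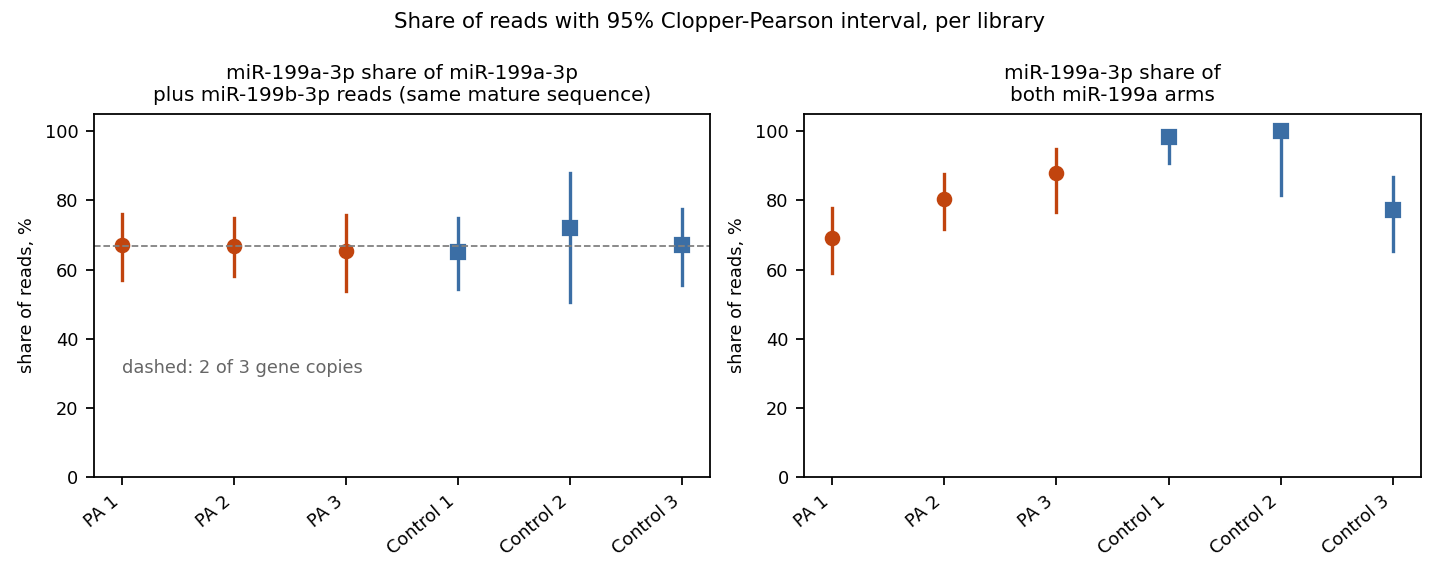
Shares of reads per library, PA libraries as circles and Control libraries as squares, with 95% Clopper-Pearson intervals. The left panel gives miR-199a-3p as a percentage of miR-199a-3p plus miR-199b-3p reads, with a dashed line at 2 of 3 gene copies (66.7%), and the right panel the 3p arm as a percentage of both miR-199a arms. The left shares lie between 65.2% and 72.0%, and the right shares spread from 69.0% to 100%.

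Added up, the 3 endothelial members took 0.391%, 0.515% and 0.431% of all reads in PA replicates 1, 2 and 3, against 0.315%, 0.0906% and 0.356% in Control. Of reads other than miR-122 they took 0.462%, 0.584% and 0.495% with PA, against 1.02%, 0.738% and 1.71% in Control. The 6 stellate cell or fibroblast members took 0.0681%, 0.0547% and 0.0567% of all reads with PA, against 0.249%, 0.0167% and 0.0666% in Control, and the groups overlapped. Of reads other than miR-122 they took 0.0804%, 0.0620% and 0.0651% with PA, against 0.808%, 0.136% and 0.319% in Control, and the groups did not overlap. The PA libraries lay close together in this share, while Control replicate 1 stood above and Control replicate 2 below all PA libraries when all reads were the denominator. The direction of the endothelial share turned with the denominator. In libraries of bulk vesicle RNA, a change in contributing cells and a change of a miRNA per cell cannot be told apart.

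Of the 9 members, 5 passed the filter on low values and entered the limma fit over 181 miRNAs, and 0 of these 5 were called in either direction, against 42.0% of all tested miRNAs called higher, 14.4% called lower and 56.4% called in either direction. None of the 5 had an unadjusted p below 0.05 in limma, against 112 of all 181. The 4 untested members (miR-126a-5p, miR-145a-5p, miR-199a-5p and miR-214-3p) had differences between 0.19 and 1.64 on the log2 scale when the filter was dropped, with limma adjusted p between 0.123 and 0.706. Each of these 4 had no read in some or all Control libraries, so their differences depend on the value given to 0 reads. The median log2 difference of the 5 tested members was -0.89, beside a median of 1.94 over all tested miRNAs. They ranked 120th (miR-126a-3p), 123rd (miR-126b-5p), 136th (miR-143-3p), 146th (miR-199b-3p) and 151st (miR-199a-3p) of 181 from the highest difference down. The groups did not overlap for 2 of the 5, miR-199a-3p and miR-199b-3p, against 68.0% of all tested miRNAs. These 2 rows hold the same sequence, and miR-126a-3p and miR-126b-5p overlap on opposite strands. The 5 tested rows are therefore not 5 separate measurements.

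**Figure D3:**
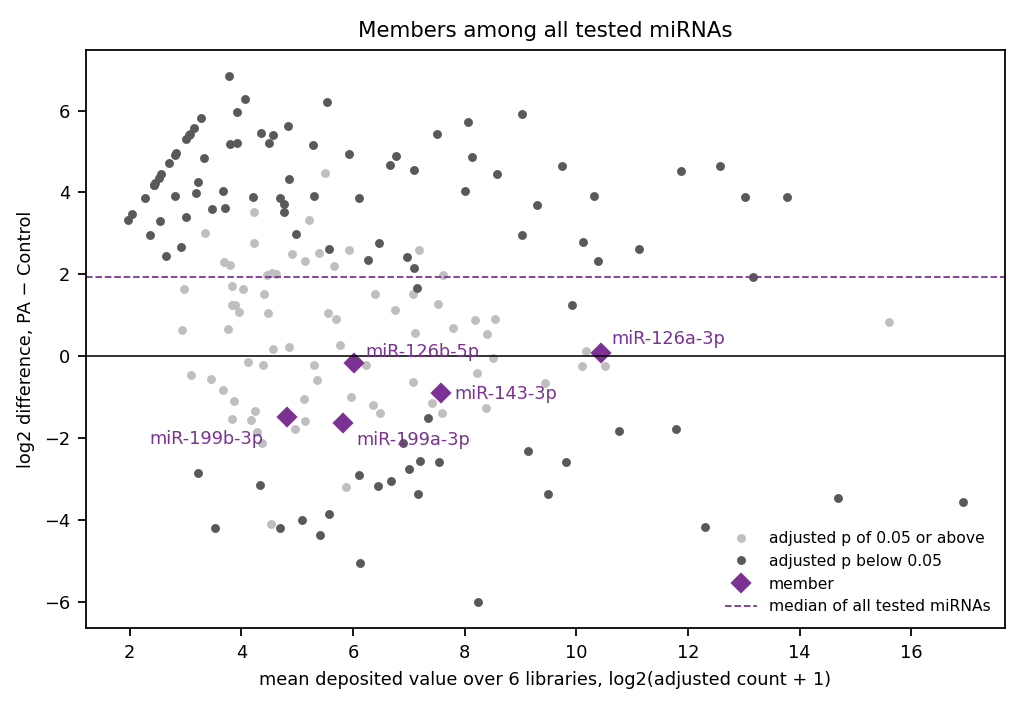
Difference between groups for all 181 tested miRNAs. The x axis is the mean deposited value over the 6 libraries, log2(adjusted count + 1), and the y axis the log2 difference, PA minus Control. Dark points have a limma adjusted p below 0.05, diamonds are the 5 tested members, and the dashed line is the median of all tested miRNAs at 1.94. The members lie between 0.07 and -1.63, all below the dashed line.

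The median log2 difference of all tested miRNAs lay between 1.15 and 2.99 with the scaling chosen, so each member was also set against that median. Relative to the median difference all 5 tested members were lower in PA vesicles, where 32.6% of all tested miRNAs were called lower and 59.1% in either direction. The differences were then -1.87 for miR-126a-3p (limma adjusted p = 0.00397), -2.11 for miR-126b-5p (0.0213), -2.83 for miR-143-3p (0.00313), -3.57 for miR-199a-3p (0.00469) and -3.44 for miR-199b-3p (0.0117). This reading takes the median as fixed and adds no error for it. Nor are the 5 rows separate measurements, here or in the counts below, given the shared miR-199-3p sequence and the overlapping miR-126 rows. With reads other than miR-122 as the scale, 3 of the 5 were called lower, against 22.7% of all tested miRNAs called lower and 54.1% in either direction. These were miR-126a-3p at -1.08 (limma adjusted p = 0.0425), miR-143-3p at -2.04 (0.0329) and miR-199a-3p at -2.79 (0.0439). In all 5 every PA library was lower on that scale, as in 28.7% of tested miRNAs. Without PA replicate 1, 2 or 3 on that scale 0 of the 5 were called lower, while 24, 26 and 28 of all 181 were, against 41 with all libraries. The differences were then -1.18 to -1.0 for miR-126a-3p, -2.19 to -1.89 for miR-143-3p and -2.92 to -2.70 for miR-199a-3p, close to those with all libraries. Without Control replicate 1, 2 or 3 the members called lower were 1, 4 and 1 of 5, and all miRNAs called lower were 37, 47 and 38 of 181. Without Control replicate 1 the miR-143-3p difference was -1.37, and without Control replicate 3 the miR-126a-3p difference was -0.75. With library totals as the scale none was called, against 49.2% of all tested miRNAs called higher, 4.42% called lower and 53.6% in either direction, and miR-126a-3p (1.04), miR-126b-5p (0.79) and miR-143-3p (0.08) had positive differences. In RPM of all reads every PA library was higher for 1 of the 5, miR-126a-3p, against 55.8% of tested miRNAs.

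**Figure D4:**
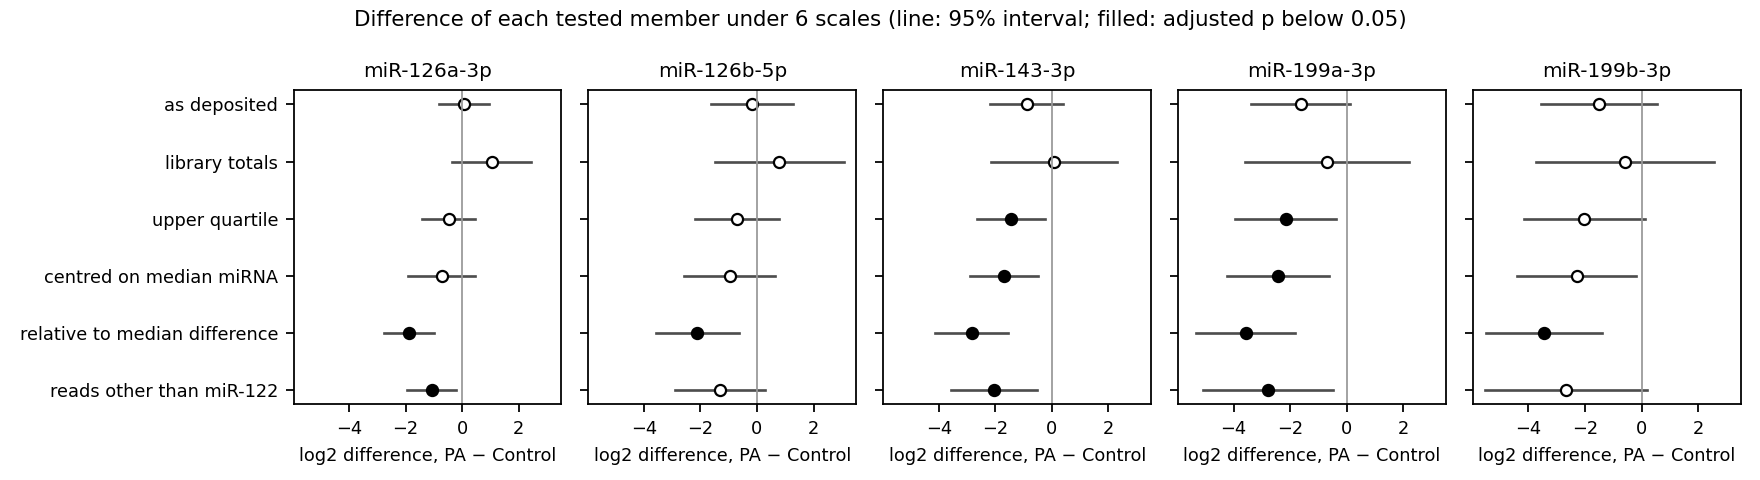
Log2 difference, PA minus Control, of the 5 tested members under 6 scales, with 95% intervals as lines. Filled points have a limma adjusted p below 0.05. For miR-126a-3p the points run from 1.04 with library totals to -1.87 relative to the median difference, and for miR-199a-3p they run from -0.68 to -3.57.

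The remaining arms of these hairpins were rare. Of 6 such rows, miR-126b-3p and miR-145a-3p are given above, miR-143-5p and miR-199b-5p had 1 read each, in PA replicate 1, and miR-145b had 1 read in each of PA replicates 1 and 2. No read was recovered for miR-214-5p. Among 7 other miRNAs linked to blood vessels, 3 were tested, of which 1 rose and 0 fell, beside 42.0% of all tested miRNAs called higher and a median log2 difference of 1.94 over all. The riser was miR-130a-3p, which is known for promoting angiogenesis, at 311, 269 and 110 reads with PA, against 16, 2 and 0 reads in Control (log2 difference 3.72, SE 1.37, limma adjusted p = 0.0464). miR-221-3p and miR-222-3p, which act on KIT in endothelial cells, stood at 2.60 (adjusted p = 0.0519) and 1.13 (adjusted p = 0.128). Among 5 other miRNAs of mesenchymal cells, 2 were tested and both were called higher, read against the same 42.0%. miR-140-5p, known from cartilage, rose by 4.25 (SE 0.65, limma adjusted p = 0.000902) and miR-152-3p by 2.35 (SE 0.67, limma adjusted p = 0.0166), the second of these near the median of all tested miRNAs. miR-140-5p had no read in 2 of the 3 Control libraries, so the size of its difference depends on the value given to 0 reads.

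Markers of other cell types were read in the same libraries. The 4 hepatocyte markers summed to between 302800 and 462500 RPM of all reads with PA, against 637300 to 825400 RPM in Control, without overlap. On the deposited scale 1 of the 4 fell (miR-122-5p, -3.56, limma adjusted p = 0.0141), 1 rose (miR-192-5p, 1.94, adjusted p = 0.0259), and miR-148a-3p (0.83) and miR-194-5p (-0.23) did not pass the test. The 3 erythroid markers summed to between 24.4 and 160 RPM with PA, against 38.0 to 5702 RPM in Control, and the 3 striated muscle markers to between 26.2 and 50.05 RPM, against 95.8 to 2363 RPM. The erythroid sums overlapped and the muscle sums did not. Of the tested rows of these lists miR-486a-5p fell, with a log2 difference of -4.2 (limma adjusted p = 0.00557), and so did miR-206-3p at -5.06 (0.00105), while miR-451a stood at -3.20 (0.0764). The defining erythroid miR-144-3p and muscle miR-133a-3p had no read in any library, and miR-1a-3p had 4 reads, all in Control replicate 1. All 4 immune markers had reads with PA and 3 of 4 in Control, with sums of 5.005 to 17.1 RPM against 0 to 73.5 RPM, and miR-223-3p had no Control read. Of the 5 epithelial and biliary markers 4 had reads in each group, with sums of 11.4 to 33.8 RPM against 1.52 to 206 RPM, where miR-429-3p had no PA read and miR-141-3p no Control read. The immune and the epithelial and biliary sums overlapped between groups, and none of their rows was tested. The part of these other markers in the values of the endothelial and stellate cell miRNAs was not tested.

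The tested miRNAs whose pattern over the 6 libraries was most like that of a member were found by the root mean square difference of log2 values, each taken relative to its own mean. For miR-126a-3p these were miR-30d-5p (0.26) and miR-92a-3p (0.33), where the median of the 176 miRNAs compared was 1.82. For miR-143-3p they were miR-12182-3p (0.41) and miR-30e-3p (0.46), against a median of 2.05. For miR-199a-3p they were miR-2137 (0.21) and miR-744-5p (0.39), against a median of 2.28. The log2 differences between groups of these neighbours lay between 0.55 for miR-92a-3p and -1.78 for miR-2137.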

How the data were processed

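The authors deposited 1 table of 6 libraries, presented as raw counts, whose values are on a log2 scale. The values behave as log2 of an adjusted count plus 1, in which counts were brought to a common library size by a negative binomial quantile adjustment. This was inferred from the values and is stated by no label. The kit was NEBNext Multiplex small RNA, per the labels, and the submitters' processing notes name Bowtie2, bedtools, GRCm38 and mm10. Inverting the adjustment (fitted dispersion 1.388) gave whole reads within 0.0015 on the log2 scale for 99.9% of the 4387 values whose neighbouring read numbers lay at least 0.02 apart. The mean of each row was chosen to bring its reads nearest to whole numbers, so this share is no independent check. For miR-126a-3p neighbouring read numbers lay closer together in every library, so its reads were not among the values checked. The inversion was tested on simulated data. In 108 rows positive values stand where no read was recovered, so the adjustment, and with it the scale, may also rest on libraries not used here.

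Differences were tested with limma 3.58.1 in R 4.3.3, using a mean-variance trend, on miRNAs whose adjusted count reached 10 in 3 or more libraries. The p-values (two-sided) were Benjamini-Hochberg adjusted over all 181, with a threshold of 0.05. The pseudocount of 1 understates differences of low miRNAs. On simulated data the fit called 6.67%, 56.7% and 90% of log2 changes of size 1, 2 and 4, and 4.17% of its calls were unchanged miRNAs. A miRNA that was not called may therefore still differ. Ratios had 0.5 added to each adjusted count, and 3 of 6 pairs averaged at least 10 in both rows. Replicates differed beyond sampling noise (chi-square per degree of freedom 99.8 to 611). Hairpin positions came from GENCODE M21 and mature sequences from RefSeq. Members, lists and rules were chosen with earlier results of these data known. Named are all members, partner rows with a read, tested rows of the vascular, mesenchymal and cell type marker lists (the marker rows were chosen after their values were seen) and the 2 nearest patterns of 3 members. Alternatives covered scale, pseudocount, filter, variance model, replicate block and left-out libraries.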

Additional observations from a re-analysis of the deposited data

How the results depend on the processing

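No member was called higher under any of the 24 alternatives. The number called lower was 0 as deposited, 0 to 2 when 1 library was left out, 1 with no mean-variance trend, 2 with upper-quartile scaling, 2 with libraries centred on their median miRNA, 3 with reads other than miR-122 as the scale and 5 relative to the median difference. On the scale of reads other than miR-122, leaving out 1 library, an alternative added after seeing the data, gave 0 to 4. The difference of miR-126a-3p, 0.07 as deposited, was a called fall of -1.08 with reads other than miR-122, -1.36 on that scale without Control replicate 2 (not called without any other library, at -1.18 to -0.75, adjusted p 0.0601 to 0.126), and -1.87 relative to the median difference. Over all 181 miRNAs, 76 were higher and 26 lower as deposited, with 63 to 85 higher and 20 to 32 lower when 1 library was left out. Relative to the median difference 48 were higher and 59 lower, with library totals 89 and 8, with reads other than miR-122 57 and 41, and centred on the median miRNA 65 and 40. With an adjusted count of at least 50 the number higher was 50 of 110 tested, and with no filter the number lower was 60 of 1058 tested, so these counts have other denominators. With reads other than miR-122 it was 47 lower without Control replicate 2, and 40, 39 and 43 higher without PA replicates 1, 2 and 3. When 1 library was left out, the ratio differences lay at 0.07 to 0.39 for miR-126a-3p over miR-126b-5p, -3.76 to -1.64 for miR-199a-3p over miR-199a-5p and -0.21 to 0.00 for miR-199a-3p over miR-199b-3p. The cause of these changes was not tested.

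The libraries share replicate numbers across groups, and same-numbered libraries correlated at 0.209, 0.151 and 0.038 in their deviations from the group means. Control replicates 1 and 2 correlated best with the PA library of their own number, and Control replicate 3 with PA replicate 2 (0.062). These correlations were low, so the numbers were not taken as pairs. With the replicate block 83 miRNAs were higher and 28 lower and 0 members were called, with a miR-199a-3p difference of -1.63. The depth of the Control libraries limits what can be said of miR-126a-5p, miR-145a-5p, miR-199a-5p and miR-214-3p.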
